A study of Mus musculus with 8 samples.

Results

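The NF-kB pathway and its inflammatory target genes were followed in mouse leukaemia stem cells with and without Pik3ca. The genes were taken from a list of 39 symbols, and each was read from the transcript row named for it in the platform annotation. Of the 39, 33 had a named row, out of 19505 genes with a symbol in the table, and each of the 33 had a single row. Nfkb1, Chuk, Traf3, Irak1, Irak4 and Ripk1 had no named row and were not analysed here.

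Leukaemic granulocyte-macrophage progenitors (GMPs), marked by GFP, carried MLL-AF9, a fusion oncogene that makes myeloid progenitors self-renew. They were sorted from the bone marrow of transplanted mice and profiled on Affymetrix arrays. Knockout cells (KO, genotype Pik3ca-/-) gave 3 arrays and wild-type cells (WT) gave 5, and both groups carried MLL-AF9. The catalytic p110-alpha subunit of PI3K, the lipid kinase upstream of AKT, is the product of Pik3ca. Sources used here give neither the Cre line nor the deleted part of the gene, the age of the mice or whether each array stands for a mouse of its own, so p-values measure only the spread between these samples.

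NF-kB transcription factors are dimers of Rel proteins. In resting cells IkB proteins hold them in the cytoplasm. Signals from TNF, interleukin-1 and Toll-like receptors run through adaptors and ubiquitin ligases to the IKK kinase complex, which marks IkB for destruction and lets the dimers enter the nucleus. Several of their targets, such as Nfkbia and Tnfaip3, encode inhibitors that close the loop. Constitutive NF-kB activity has been described in leukaemia stem cells, and AKT can feed into IKK in some cell types.

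All values are the deposited log2 values, and every difference is the KO mean minus the WT mean in log2 units. A gene is called dim on an array where it lies below the median of all rows of that array, which ran from 5.26 to 5.51. The sorted population expressed GMP genes, but these did not single it out. All 9 GMP and primary granule markers lay above the array median on every array, with a median difference of 0.0017. Cd34, however, differed by -2.001, and by -1.50 without WT array 3. On KO array 1 Cd34 was 5.63, close to that array's median of 5.43. Of the 10 maturing neutrophil markers, 9 lay above the array median on every array, and Retnlg was dim on KO array 1. The highest of them, S100a8, Camp and Ngp, lay between 17.45 and 18.21, beside 17.05 to 17.89 for Mpo and Elane. Markers of other cells were mixed. Cd3e, Cd3g, Cd247 and Gzma of the T and NK list, Cd79a, Ms4a1 and Pax5 of the B cell list and Cdh5, Kdr, Emcn and Lepr of the endothelial and stromal list were dim on every array. Nkg7 (T and NK), Cd79b and Vpreb1 (B cell) and Pecam1 (endothelial) lay above the array median on every array. WT array 3 stood apart, with a mean correlation of 0.921 with the other arrays across genes, against 0.968 to 0.972 for the other 7, so the differences of the members are also given without it, in the text or in the plot of differences. Pik3ca itself averaged 9.15 ± 0.36 in KO cells (SD, n = 3), against 9.31 ± 0.51 in WT cells (SD, n = 5), a difference of -0.16 (exact permutation test, two-sided, p = 0.661). WT array 3 held its lowest value. With that array left out, the other 4 WT arrays lay between 9.48 and 9.58, every KO array lay below them, the difference was -0.39 and the exact permutation p was 0.0286, the lower limit for 35 splits. The row may lie outside the deleted part, so these levels are no firm check of the genotype labels.

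The DNA element of the pathway can be seen in the promoters of its own feedback genes, and those of 4 members are shown for this reason from RefSeq (GRCm38.p6), each 250 bases before to 50 bases after the start of the gene and read 5′ to 3′ on the strand of the gene. They are Nfkb2 (chr19:46304487-46304786, forward strand), which encodes the p100 precursor of p52, Nfkbia (chr12:55492598-55492897, reverse strand), encoding IkB-alpha, Nfkbie (chr17:45555450-45555749, forward strand), encoding IkB-epsilon, and Tnfaip3 (chr10:19015361-19015660, reverse strand), encoding the ubiquitin-editing enzyme A20. Capitals mark matches to the 10-letter kappaB consensus, the DNA element that NF-kB dimers bind, searched on both strands. Nfkb2 has 3 promoters and Tnfaip3 2, and for these the window with most matches is shown.
Nfkb2: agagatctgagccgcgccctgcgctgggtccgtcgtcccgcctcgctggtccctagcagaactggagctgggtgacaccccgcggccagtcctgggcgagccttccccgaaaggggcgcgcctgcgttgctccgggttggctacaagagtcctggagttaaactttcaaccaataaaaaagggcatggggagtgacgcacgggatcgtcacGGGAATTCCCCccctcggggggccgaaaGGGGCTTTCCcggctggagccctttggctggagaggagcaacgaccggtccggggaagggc
Nfkbia: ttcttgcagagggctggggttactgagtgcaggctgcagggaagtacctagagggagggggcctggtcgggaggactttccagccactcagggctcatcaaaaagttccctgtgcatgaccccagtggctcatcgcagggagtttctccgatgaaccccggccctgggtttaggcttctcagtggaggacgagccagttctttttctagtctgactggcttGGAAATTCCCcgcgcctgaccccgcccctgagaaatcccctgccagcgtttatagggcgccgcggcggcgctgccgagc
Nfkbie: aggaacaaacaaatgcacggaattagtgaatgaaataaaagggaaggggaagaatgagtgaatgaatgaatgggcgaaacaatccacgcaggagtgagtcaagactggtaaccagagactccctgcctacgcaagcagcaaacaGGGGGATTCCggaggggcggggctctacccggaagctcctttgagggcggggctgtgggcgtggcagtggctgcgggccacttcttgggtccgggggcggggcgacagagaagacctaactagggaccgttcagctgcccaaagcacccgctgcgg
Tnfaip3: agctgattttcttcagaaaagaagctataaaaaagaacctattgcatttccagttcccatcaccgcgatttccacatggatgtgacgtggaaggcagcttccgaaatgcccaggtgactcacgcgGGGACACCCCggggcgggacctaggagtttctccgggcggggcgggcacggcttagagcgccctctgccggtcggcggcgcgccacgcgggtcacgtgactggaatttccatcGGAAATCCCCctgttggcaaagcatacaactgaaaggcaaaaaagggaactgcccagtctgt

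The Nfkb2 window held 3 match positions, of which 2 overlap, the Tnfaip3 window held 2, and those of Nfkbia and Nfkbie held 1 each. Of the 39 members, 32 had a promoter in the RefSeq table, and 10 of them, or 31.3%, held a match in at least 1 promoter. Over all 27025 genes in that table the share was 5.14%, and over its 32851 promoter windows it was 4.51%. The 10 were Nfkb2, Rel, Nfkbia, Nfkbie, Bcl3, Tnfaip3, Tlr2, Traf3, Map3k7 and Cxcl2. A match is a description of the sequence and not a measured binding site.

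No member passed the test between KO and WT. KO was compared with WT by limma over all 9920 genes that were above the array median on at least 3 arrays, with Benjamini-Hochberg adjustment and a threshold of 0.05, and 27 of the 33 members were among them. Of these 27, 0 were called higher and 0 lower, and of all genes tested 0.0% were called in either direction. At an unadjusted p under 0.05 there was 1 member, Ccl3, of 27, against 2.84% of all genes tested. Without WT array 3, limma again called 0 members and 0.0% of all genes, with 1 member at an unadjusted p under 0.05, against 4.68% of all genes. The remaining 6 members with a row, Relb, Ikbkg, Traf1, Ccl4, Cxcl2 and Ptgs2, were too dim to be tested there and are given from a fit over all 19505 genes, which called 0.0% of them.

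The size of what could have been missed differs between members. The 95% confidence interval of the difference lay wholly between -1 and 1, a 2-fold change in either direction, for 10 of the 27 tested members and for 54.8% of all genes tested. Without WT array 3 this held for 13 of 27 members and 72.2% of genes. Standard errors had a median of 0.38 over the members and 0.31 over all genes tested. For the other 17 members a 2-fold difference in at least 1 direction lay inside the interval. The plot of differences by role shows these intervals.

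**Figure D1:**
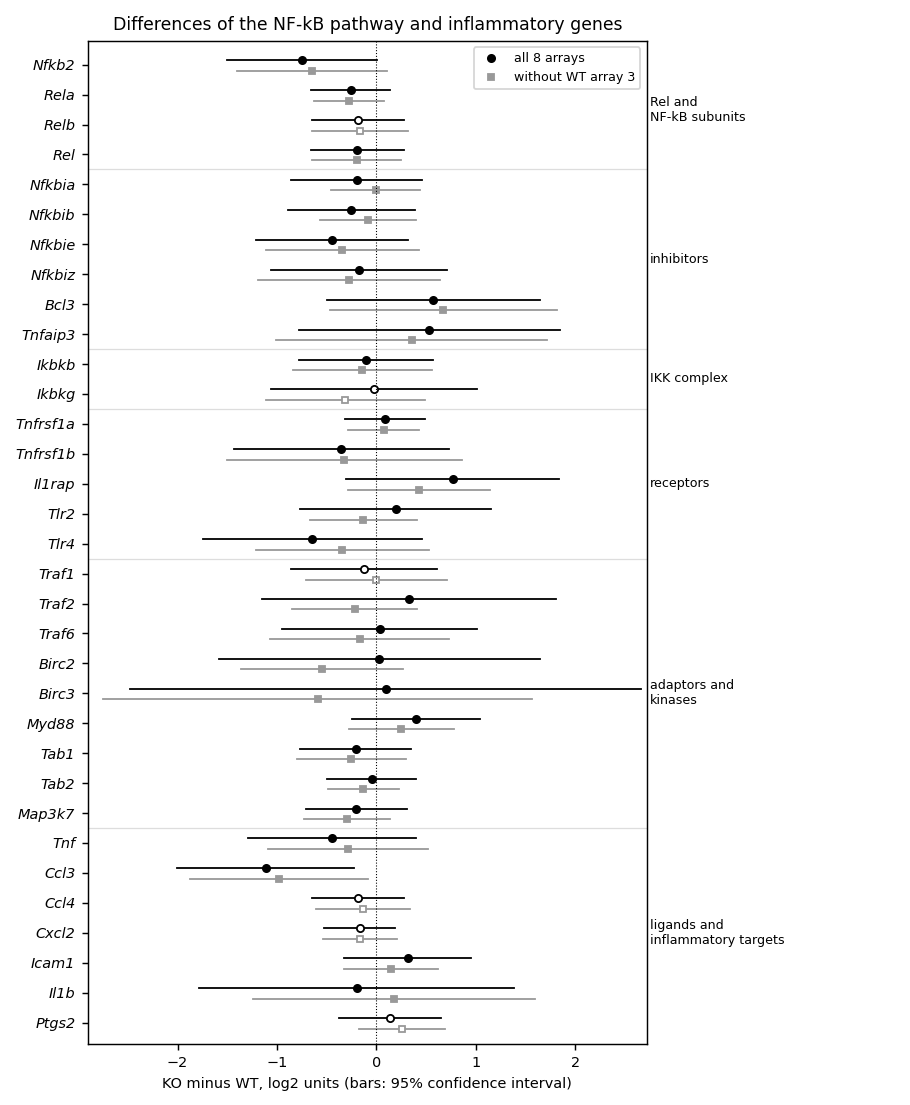
The difference of each of the 33 members, KO minus WT in log2 units, with its 95% confidence interval. Genes run down the page by role, black circles use all 8 arrays, grey squares leave out WT array 3, and open symbols mark the 6 members too dim for the main test. All intervals but that of Ccl3 include 0, and that of Birc3 is the widest.

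The Rel and NF-kB subunits are the DNA-binding end of the pathway. All 4 with a row had a difference below 0, and 0 passed. Rela encodes p65, the subunit that carries most of the activating function of the classical dimer. It was 12.15, 12.26 and 12.16 in KO arrays 1 to 3 and 12.62, 12.32, 12.38, 12.47 and 12.44 in WT arrays 1 to 5. Every KO array lay below every WT array, and the spread within each group was small.

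For Rela the difference was -0.26 with a 95% interval of -0.65 to 0.14, or 1.19-fold lower in KO. An exact two-sided permutation test gave p = 0.0179, the lower limit for 56 splits, and limma, which moderates small variances across genes, gave an unadjusted p of 0.180 and an adjusted p of 0.998. Without WT array 3 the difference was -0.27, the groups still did not overlap, and the exact permutation p was 0.0571. With each array centred on its median the groups of Rela overlapped. Rela was the only 1 of 27 tested members whose groups did not overlap, where 3.09% of all genes tested had groups that did not overlap, so the count is near the background. The count was again 1 of 27 when WT array 3 was left out, beside 5.55% of all genes tested. Of the 33 permutation tests run over the members, the next smallest p was 0.0893, for Ccl3.

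Nfkb2, whose product p100 is both a precursor of a subunit and an inhibitor, had the largest difference among the subunits. Its values were 7.31, 7.89 and 6.90 in KO arrays 1 to 3, against 7.45, 7.83, 8.51, 8.20 and 8.58 in WT arrays 1 to 5. KO array 2 lay above WT arrays 1 and 2, so the groups overlapped. Its mean was 7.37 ± 0.50 in KO cells (SD, n = 3), against 8.11 ± 0.48 in WT cells (SD, n = 5), a difference of -0.75 (95% interval -1.50 to 0.01), or 1.68-fold lower in KO. The unadjusted limma p was 0.0520 and the adjusted p 0.998, and the difference was -0.65 without WT array 3.

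Rel encodes the subunit c-Rel. It was 10.08, 10.67 and 10.71 in KO arrays 1 to 3, against 10.67, 10.71, 10.66, 10.65 and 10.71 in WT arrays 1 to 5. KO array 1 lay below all WT arrays, while the other 2 KO arrays lay at the WT values. The difference of -0.19 became 0.01 without KO array 1 and was -0.20 without WT array 3. Relb, the partner of p52 in the alternative pathway, was dim on every array, at 4.53 to 4.94 in KO and 4.50 to 5.34 in WT, with a difference of -0.18, and -0.17 without WT array 3.

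The inhibitors were mixed, with 4 of 6 below 0, 2 above and 0 passing. The nuclear IkB proteins encoded by Nfkbiz and Bcl3, which can act as cofactors, were counted among them. Nfkbia was 11.44, 11.08 and 11.66 in KO arrays 1 to 3, against 11.56, 11.50, 12.34, 11.28 and 11.24 in WT arrays 1 to 5. The high WT value came from array 3, and the other WT arrays lay within the KO range. Its difference of -0.20 (95% interval -0.85 to 0.46) became -0.01 without that array, with an interval of -0.45 to 0.44. Nfkbib, encoding IkB-beta, behaved in the same way, at -0.25 with all arrays and -0.08 without WT array 3, where its value of 14.19 lay 0.83 above the mean of the other WT arrays. It lay between 13.18 and 13.40 in KO and between 12.91 and 14.19 in WT.

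Nfkbie was 5.38, 4.90 and 5.10 in KO arrays 1 to 3, against 6.06, 4.61, 5.97, 5.75 and 5.46 in WT arrays 1 to 5. Only WT array 2 lay below the KO values, and the gene was dim on all 3 KO arrays and on that WT array, so that it entered the test through its WT values alone. The difference was -0.45 (95% interval -1.21 to 0.32) with an unadjusted p of 0.222, and -0.34 without WT array 3. Nfkbiz, encoding the nuclear cofactor IkB-zeta, differed by -0.18 and lay between 5.53 and 6.67 in KO and between 5.52 and 7.02 in WT.

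Bcl3, a nuclear IkB protein that can co-activate p50 and p52 dimers, had a difference above 0. It was 7.38, 7.48 and 6.85 in KO arrays 1 to 3, against 7.83, 6.79, 7.06, 5.57 and 6.05 in WT arrays 1 to 5. WT array 1 held the highest value and WT arrays 4 and 5 the lowest, so the groups overlapped, and the difference was 0.57 (95% interval -0.50 to 1.65), and 0.67 without WT array 3. Tnfaip3 was 7.61, 5.65 and 7.79 in KO arrays 1 to 3, against 7.01, 5.50, 5.76, 7.12 and 7.02 in WT arrays 1 to 5. Both groups were split, with KO array 2 and WT arrays 2 and 3 low and the other 5 arrays high. The difference of 0.53 had an interval of -0.78 to 1.85 and became 1.22 without KO array 2 and 0.15 without KO array 3. Leaving out WT array 3 gave 0.35.

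Of the IKK complex, Ikbkb encodes the kinase that phosphorylates IkB in the classical pathway and Ikbkg the scaffold subunit NEMO. Ikbkb was 8.27, 9.05 and 8.96 in KO arrays 1 to 3, against 9.02, 8.26, 8.73, 8.94 and 9.38 in WT arrays 1 to 5. Both groups covered nearly the same range. The difference of -0.11 had an interval of -0.78 to 0.57 and turned to 0.14 without KO array 1 and to 0.02 without WT array 5, while it was -0.14 without WT array 3. Ikbkg, at 4.17 to 5.56 in KO and 3.70 to 5.65 in WT, was dim on 6 of the 8 arrays and differed by -0.02, and by -0.31 without WT array 3.

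**Figure D2:**
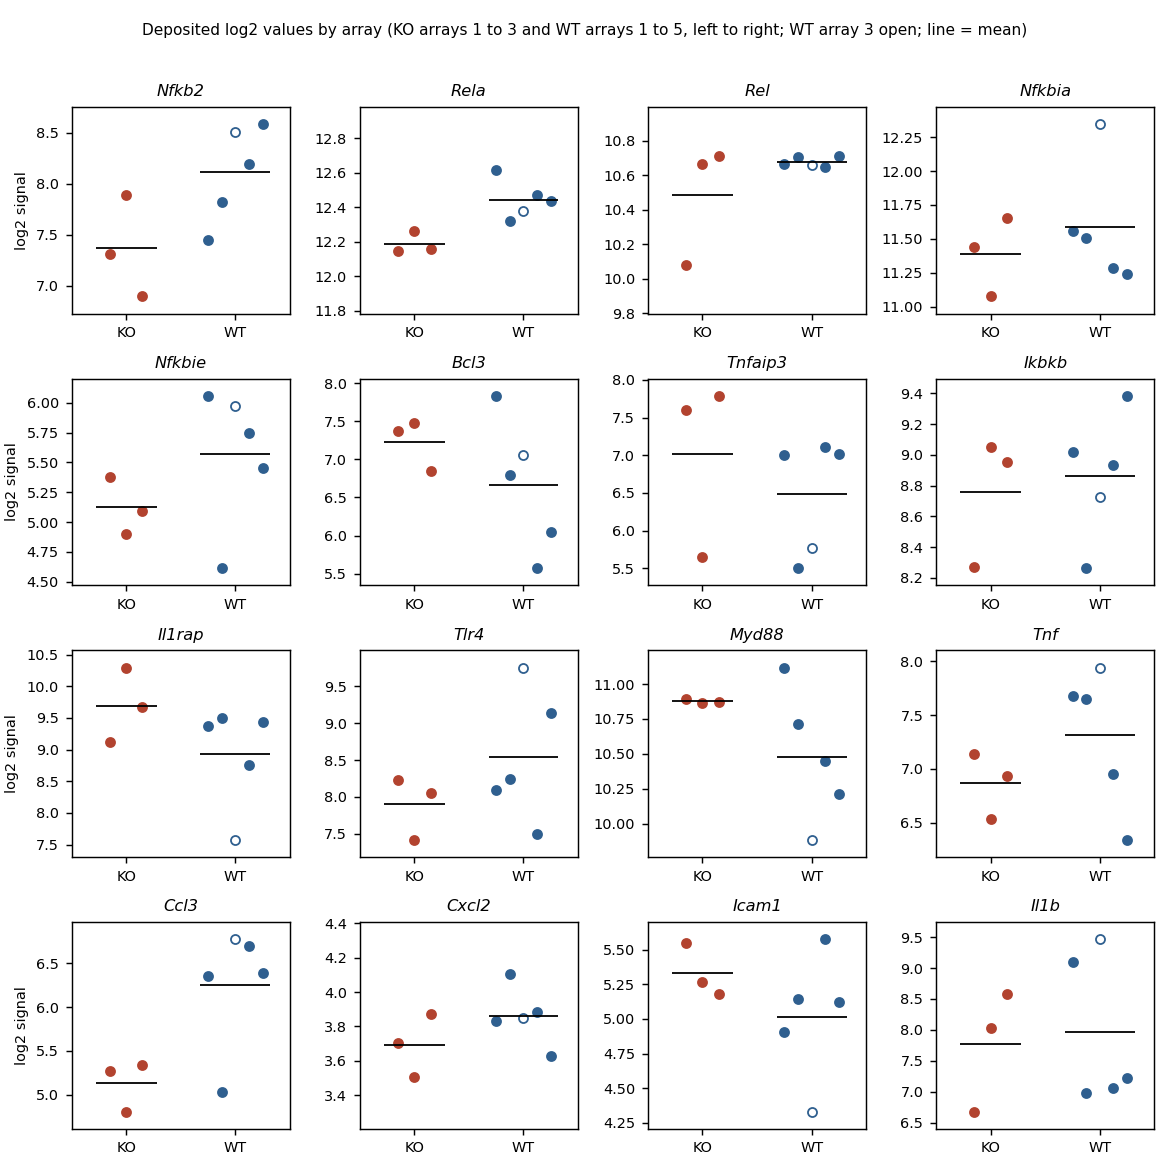
Log2 values on each array for the 16 members given in full, with KO arrays 1 to 3 in red on the left of each panel and WT arrays 1 to 5 in blue on the right, in array order. WT array 3 is open and lines are group means, each panel has its own log2 axis, and Rela is the only 1 of the 16 whose KO and WT arrays do not overlap.

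Receptors had 3 differences above 0 and 2 below, with 0 passing. Tnfrsf1a encodes TNFR1, the main signalling receptor of TNF, and differed little. It was 13.34, 13.38 and 13.51 in KO arrays 1 to 3, against 13.43, 13.35, 13.27, 13.15 and 13.40 in WT arrays 1 to 5. With a difference of 0.09 and a 95% interval of -0.31 to 0.49, a change beyond 1.40-fold upward or 1.24-fold downward lay outside the interval. Leaving out WT array 3 gave 0.07. Tnfrsf1b, encoding TNFR2, was 6.74, 7.73 and 5.17 in the KO arrays against 6.76 to 7.04 in WT. Its KO arrays 2 and 3 lay on either side of a narrow WT range, and its difference of -0.35 had an interval of -1.43 to 0.73 and turned to 0.34 without KO array 3.

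Il1rap encodes the shared co-receptor of the interleukin-1 family and is a known surface marker of leukaemia stem cells. It was 9.12, 10.29 and 9.67 in KO arrays 1 to 3, against 9.37, 9.50, 7.57, 8.75 and 9.43 in WT arrays 1 to 5. KO arrays 2 and 3 lay above all WT arrays and KO array 1 within them. The difference was 0.77 (95% interval -0.31 to 1.84), the largest above 0 among the members with all arrays, with an unadjusted limma p of 0.141 and an adjusted p of 0.998. It was 0.43 without WT array 3, where Bcl3 at 0.67 was larger. For Il1rap the value on that array minus the mean of the other WT arrays was -1.69.

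Tlr4, the receptor of lipopolysaccharide, was 8.23, 7.42 and 8.06 in KO arrays 1 to 3, against 8.10, 8.24, 9.75, 7.50 and 9.13 in WT arrays 1 to 5. WT arrays 3 and 5 were high and the other 3 lay at the KO values. Its difference was -0.64 (95% interval -1.75 to 0.46), and -0.34 without WT array 3. Tlr2, the receptor of bacterial lipoproteins, was 7.04 to 7.75 in KO and 6.01 to 7.92 in WT. WT array 3 held its lowest value, and its difference was 0.19 with all arrays and -0.13 without it.

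Adaptors and kinases join the receptors to IKK. Of 8 tested, 5 had a difference above 0 and 3 below, and 0 passed. Without WT array 3 the split was 1 above and 7 below, again with 0 passing, because Traf2, Traf6, Birc2 and Birc3 changed sign. These 4 encode RING-domain proteins of the TNF and Toll-like receptor signalling complexes, and WT array 3 held the lowest value of each. Its value minus the mean of the other WT arrays was -2.72 for Traf2, -1.02 for Traf6, -2.89 for Birc2 and -3.42 for Birc3. Their differences without it were -0.22, -0.17, -0.55 and -0.59, none of them past the test.

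Myd88 is the adaptor shared by interleukin-1 and most Toll-like receptors. It was 10.89, 10.86 and 10.87 in KO arrays 1 to 3, against 11.12, 10.72, 9.89, 10.45 and 10.22 in WT arrays 1 to 5. The KO arrays were nearly equal, and only WT array 1 lay above them. The difference was 0.40 (95% interval -0.24 to 1.04), and 0.25 without WT array 3. Tab1 and Tab2, which activate the kinase TAK1, differed by -0.21 and -0.05, and Map3k7, which encodes TAK1, by -0.20. Leaving out WT array 3 gave -0.25 for Tab1, -0.13 for Tab2 and -0.30 for Map3k7. Birc3, encoding the ubiquitin ligase cIAP2, was the most variable member, at 7.69, 10.27 and 5.74 in KO arrays 1 to 3, against 5.08 to 9.16 in WT. Traf1, another TNF receptor adaptor, was dim on every array, at 2.94 to 3.64 in KO and 2.89 to 4.07 in WT, with a difference of -0.12.

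Ligands and inflammatory targets included several dim genes. Of 7, 3 lay below the filter, Ccl4, Cxcl2 and Ptgs2, and of the 4 tested 3 had a difference below 0 and 0 passed. Ccl3, a chemokine also known as MIP-1-alpha, had the largest difference of any member. It was 5.27, 4.81 and 5.34 in KO arrays 1 to 3, against 6.36, 5.03, 6.77, 6.70 and 6.38 in WT arrays 1 to 5. Of the WT arrays 4 lay above all KO arrays, and WT array 2 lay among them.

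Ccl3 averaged 5.14 ± 0.29 in KO cells (SD, n = 3), against 6.25 ± 0.70 in WT cells (SD, n = 5). The difference of -1.11 had a 95% interval of -2.002 to -0.22, or 2.16-fold lower in KO. Its unadjusted limma p was 0.0200, its adjusted p 0.998 and its exact permutation p 0.0893. Without WT array 3 the difference was -0.98, and without WT array 2 it was -1.42. With WT array 2 left out the groups no longer overlapped. This held for 3 of the 27 tested members, beside 5.03% of all genes tested. Ccl3 was dim on all 3 KO arrays and on WT array 2 and therefore entered the test through its WT values alone. Ccl4, the neighbouring MIP-1-beta gene, was at 4.56 to 5.37 in KO and 4.96 to 5.41 in WT, with a difference of -0.18, and was above the array median on 1 array alone.

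Tnf was 7.14, 6.53 and 6.94 in KO arrays 1 to 3, against 7.68, 7.65, 7.94, 6.95 and 6.34 in WT arrays 1 to 5. WT arrays 1 to 3 lay above the KO arrays and WT arrays 4 and 5 among or below them. Its difference was -0.45 (95% interval -1.29 to 0.40), and -0.29 without WT array 3. Il1b, encoding interleukin-1-beta, was 6.68, 8.04 and 8.58 in KO arrays 1 to 3, against 9.10, 6.98, 9.46, 7.06 and 7.23 in WT arrays 1 to 5. It was high on WT arrays 1 and 3 and low on the other 3, so its difference of -0.20 (95% interval -1.78 to 1.39) turned to 0.18 without WT array 3, to 0.09 without WT array 1 and to 0.35 without KO array 1.

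Icam1, an adhesion molecule gene, was 5.55, 5.27 and 5.18 in KO arrays 1 to 3, against 4.91, 5.14, 4.33, 5.57 and 5.12 in WT arrays 1 to 5, dim on 5 of the 8. Its difference was 0.32, and 0.15 without WT array 3. Cxcl2, a neutrophil chemokine gene, was 3.70, 3.51 and 3.87 in KO arrays 1 to 3, against 3.83, 4.10, 3.85, 3.89 and 3.63 in WT arrays 1 to 5, dim throughout, with a difference of -0.17 with and without WT array 3. Ptgs2, which encodes the prostaglandin enzyme COX-2, was dim on every array too, at 3.45 to 3.76 in KO and 3.05 to 3.91 in WT, with a difference of 0.14, and 0.26 without WT array 3.

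As a list, the 27 tested members had a median difference of -0.18, with 16 below 0 and 11 above, beside a median of 0.04 and 4367 of 9920 below 0 over all genes tested. Without WT array 3 the members' median was -0.20, with 20 below 0, beside 0.00018 and 4954 of 9920 over all genes. The members' median depended on single arrays of both groups. It became 0.08 without KO array 1 and -0.01 without WT array 1, while the median over all genes stayed at 0.05 and 0.06.

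KO array 1 held the highest value of 0 of the 27 members and lay above the gene's median over the 8 arrays for 8 of them. Over all genes tested it was the highest for 11.4% and above the gene's median for 4778 of 9920. WT array 1 held the highest value for 8 of 27, or 29.6%, where it held the highest for 9.77% of all genes tested, and the lowest value for 0. Those 8 were Rela, Nfkbie, Nfkbiz, Bcl3, Tlr2, Traf6, Birc2 and Myd88. Marker levels differed between arrays as well. On WT array 1 all 6 megakaryocyte and platelet markers with a row lay above their gene's median, by a median of 2.88, as did 10 of 11 monocyte and macrophage markers, by a median of 0.43, and 8 of 9 GMP markers, by a median of 0.18. On WT array 3 all 6 platelet markers lay above it, by a median of 0.90, and all 5 B cell markers, by a median of 0.64. Of the 10 maturing neutrophil markers, 10 lay above it on KO array 3 and 1 on KO array 1. The level of the platelet markers, averaged over the list, was 6.07 to 6.37 in KO and 5.80 to 10.1 in WT, and that of the monocyte markers 8.77 to 9.20 in KO and 8.83 to 9.78 in WT. Among the monocyte markers Csf1r lay above the array median on every array and Klf4 on 0. Of the 10 monocyte markers tested 0 were called, with 7 below 0, 3 above and a median difference of -0.19, or -0.20 without WT array 3. They ran from Ms4a6c at -1.14 to Adgre1 at 0.60, and Lyz2 was at 0.33. Groups did not overlap for 2 of the 10, Ms4a6c and Irf8 (-0.97), beside 3.09% of all genes tested. The part of these cells in the members' values was not tested, and in sorted bulk samples fewer cells of a type and less RNA per cell cannot be told apart.

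**Figure D3:**
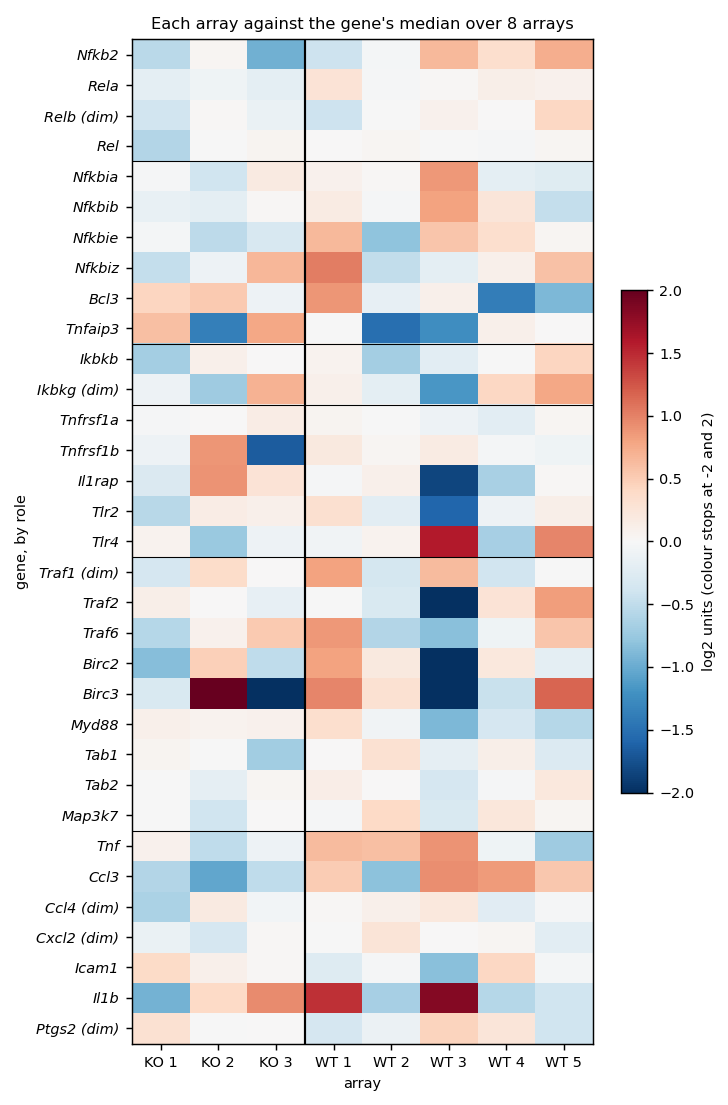
Each of the 33 members (rows, by role) on each array (columns, KO left of the line, WT right of it), coloured by its distance in log2 units from that gene's median over the 8 arrays, with colours that stop at -2 and 2. WT array 3 lies far below the median at Traf2, Birc2 and Birc3, and WT array 1 lies above it for 20 of the 27 tested members.

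WT array 3 was the highest or lowest of the 8 arrays for 15 of the 27 tested members, beside 61.5% of all genes tested. Of the 9 adaptors and kinases with a row it held the lowest value of 6 and the highest of 0, and of the 7 ligands and targets it held the highest value of 5 and the lowest of 1. These counts include dim members, Traf1 among the adaptors and Ccl4, Cxcl2 and Ptgs2 among the targets. WT array 3 was the highest for Ccl4 and Ptgs2. Over all genes tested it held the lowest value of 36.5% and the highest of 25.0%. Over all 19505 genes with a symbol, dim ones included, it held the lowest value of 4199 and the highest of 6121. The targets with the highest value there included Tnf, Ccl3 and Il1b, which lay 0.79, 0.66 and 1.87 above the mean of the other WT arrays.

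Members with a kappaB match were set beside members without. Of the 8 tested members with a match 5 had a difference below 0 and the median was -0.19, and of the 15 tested members with a promoter but no match 7 were below 0 and the median was 0.03. Over the 8179 genes tested that had a promoter the medians were 0.04 for the 450 with a match and 0.04 for the 7729 without. Leaving out WT array 3 brought both kinds of member together, at -0.16 with a match and -0.17 without. Over those 8179 genes the medians were then -0.024 with a match and -0.0002 without. Among the 4 promoters printed above, Nfkb2 and Nfkbie had differences of -0.75 and -0.45, Nfkbia -0.20 and Tnfaip3 0.53, so genes with the same element lay on both sides of 0.

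**Figure D4:**
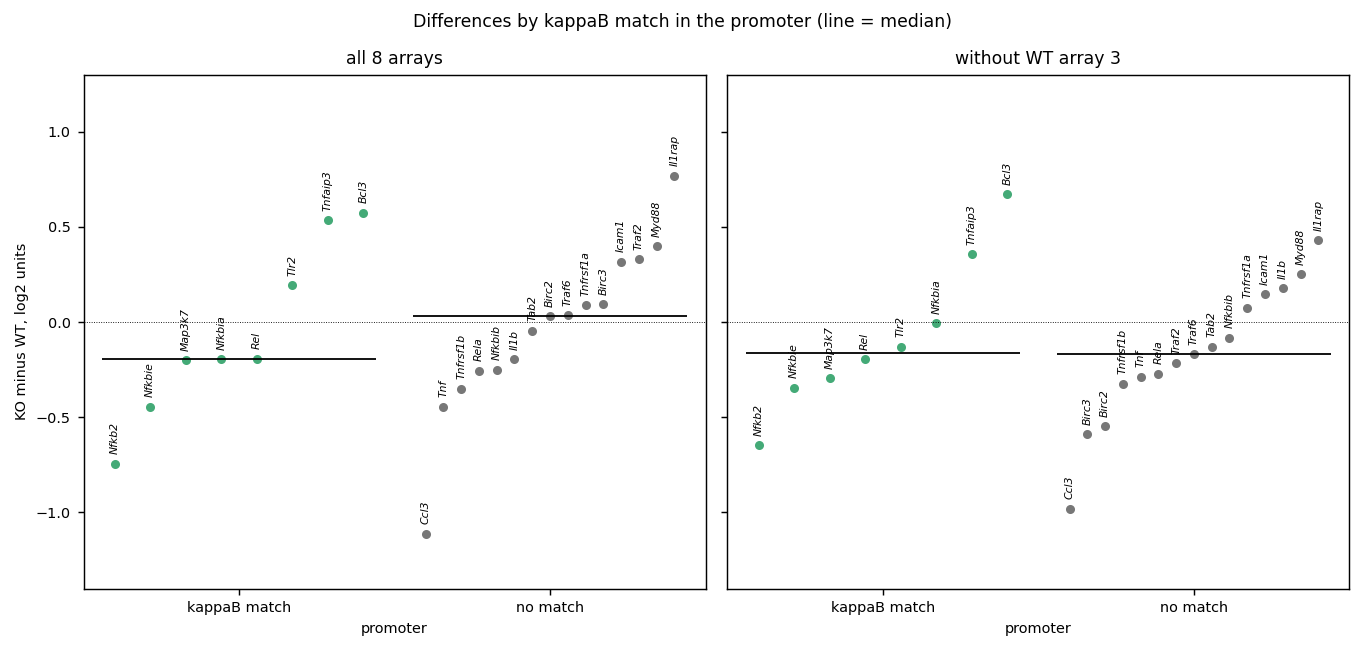
Differences of the 23 tested members with a RefSeq promoter, KO minus WT in log2 units, for members with a kappaB match (8, green) and without (15, grey), with all 8 arrays on the left and without WT array 3 on the right. Lines are medians, which are -0.19 and 0.03 with all arrays and -0.16 and -0.17 without WT array 3.

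Other genes of the pathway, from a list of 54 receptors, adaptors, kinases and inhibitors, are given next to the members. Of 41 tested, 0 were called higher and 0 lower, with 23 above 0, 18 below and a median of 0.04. Leaving out WT array 3, 19 were above 0 and 22 below, with a median of -0.05 and again 0 called. The 4 with the smallest unadjusted p were Tlr1, a partner of TLR2, at 1.45, Tlr7, a receptor of single-stranded RNA, at -0.63, Map3k8, the kinase TPL2, at -0.42 and Nfkbil1 at 0.32. Without that array they were 1.11, -0.47, -0.28 and 0.31. Groups did not overlap for 0 of the 41 with all arrays, beside 3.09% of all genes tested. Without WT array 3 they did not overlap for 2 of the 41, beside 5.55% of all genes tested. Of a second list of 28 target genes, 16 were tested, 0 were called in either direction and the median was 0.04, or 0.12 without WT array 3. Its 4 with the smallest unadjusted p were Vcam1, an adhesion molecule gene, at 1.52, Junb, an AP-1 subunit gene, at 0.41, Zfp36, which encodes an mRNA decay factor, at -0.49 and Sod2, the mitochondrial superoxide dismutase gene, at 0.28. Their differences without WT array 3 were 1.29, 0.26, -0.21 and 0.32.

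Of the 16 tested target genes Junb was the 1 whose groups did not overlap, beside 3.09% of all genes tested. It was at 11.09, 11.02 and 11.06 in KO arrays 1 to 3, against 10.98, 10.75, 10.05, 10.91 and 10.55 in WT arrays 1 to 5. Its difference of 0.41 had an unadjusted limma p of 0.134 and an adjusted p of 0.998.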

How the data were processed

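RNA from sorted cells was extracted with a PicoPure kit, biotin-labelled and hybridised to Affymetrix mouse transcriptome arrays, per the labels' protocols. The authors deposited a table of log2 values for 22206 transcript rows and 6640 control rows. The log base was read from the values, which run from 1.89 to 18.6, and the sources used here name no software, normalization or genome build for it. Control rows were left out. Of the transcript rows, 19572 had 1 gene symbol in the platform annotation, 0 had several and 2634 had none, and all 19572 matched RefSeq (GRCm38.p6) by gene identifier. The row with the highest mean stood for a symbol with several rows. Groups came from the genotype in the labels. The test was limma 3.58.1 (R 4.3.3, lmFit and eBayes) on genes above the array median on at least 3 arrays, with Benjamini-Hochberg adjustment over all genes tested. Its code was run on simulated data whose spread left out WT array 3, so that run does not measure its power on these arrays. Exact two-sided permutation tests used all 56 splits of the arrays, or 35 without WT array 3. Arrays give no counts, so their number limits the precision. The members and lists were chosen with earlier results of these data known. Values on every array are given for the 12 members with the smallest unadjusted p without a filter, for members whose groups do not overlap and for the core of the pathway. Of the other lists the 4 genes with the smallest unadjusted p are named. Other members are given by range or, where single arrays are discussed, in full. Alternatives covered the filter, scaling, array weights, variance moderation, the choice of row, the replicate number as a block and each array left out in turn. Deviations of same-numbered KO and WT arrays from their group means correlated at 0.02, -0.02 and 0.14. With so few arrays these values cannot settle whether the numbers pair the samples. The main test used no pairing.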

Additional observations from a re-analysis of the deposited data

Results flagged for a closer look

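Within the 5 WT arrays, the 33 members were searched for a single array far from the other 4, by Dixon's test at its 95% critical value, which sets the distance to the next array against the range of the group and which chance passes in about 1 of 20 groups. The search found 2. Tlr2 was 6.01 on WT array 3, against 7.38 to 7.92 on the other WT arrays. Ccl3 was 5.03 on WT array 2, against 6.36 to 6.77 on the other WT arrays.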

How the results depend on the processing

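In every setting run, limma called 0 members and 0 of all genes after adjustment. At an unadjusted p under 0.05 it gave 282 genes, against 446 with array weights, 592 of 19505 with no filter, where Nfkb2 joined Ccl3, and 464 without WT array 3. Lower counts included 217 of 7895 with the stricter filter, 257 with the alternative variance moderation and 220 without KO array 1. No gene was called in any setting, so no value changed its side of the threshold. The filters, the variance moderation and the choice of row leave the difference of a member unchanged. Each member had a single row, so those settings could not turn a sign. With them included, of the 253 values of the 16 members given on every array under the alternatives 245 kept the direction, and 8 turned. These were Rel (leaving out 1 array, -0.31 to 0.011), Ikbkb (-0.26 to 0.14 leaving out 1 array) and Il1b (-0.60 to 0.35 leaving out 1 array, and 0.18 with no filter and without WT array 3, a setting added after seeing the data). With the replicate number as a block Ikbkb was 0.090, Bcl3 was 0.01, and 333 genes had an unadjusted p under 0.05. Whether the replicate numbers pair the samples could not be settled. Over all 27 tested members the sign turned for 12 leaving out 1 array, which adds Nfkbiz, Tnfrsf1b, Tlr2, Traf2, Traf6, Birc2, Birc3, Tab1 and Tab2. The count of tested members whose groups do not overlap was 0 with arrays centred on their median, beside 2.96% of all genes tested. Leaving out 1 array it was 1 to 4, while the share of all genes tested rose as well, to between 4.78% and 9.32%. The 4 were Nfkb2, Rela, Tnfaip3 and Tnfrsf1b without KO array 2, where 8.46% of all genes tested did not overlap. The median difference ran from -0.20 to 0.077 over tested members and from -0.20 to 0.036 over all members with a row, leaving out 1 array. The cause was not tested. Ccl3, Nfkbie and Icam1 lay below the stricter filter and have no value there. Members too dim for the test were fitted only without a filter.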
